A study of Mus musculus with 6 samples.

Results

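Expression of 53 DNA repair genes was examined in the ureteric epithelium of the embryonic mouse kidney, the branching tree that forms the collecting ducts and ureter. The genes were taken from a fixed list of symbols for homologous recombination, the Fanconi anaemia pathway, mismatch repair, excision repair and end joining, together with the checkpoint genes that sense damaged DNA. All 53 were present among the 21456 gene symbols with values. The samples came from CFW mice at stage E16.5 and carried a green fluorescent reporter of Hoxb7, which labels the ureteric epithelium, and a red fluorescent reporter of Wnt11, which labels its tips. The tip group held cells positive for both reporters (Wnt11RFP+;Hoxb7GFP+) and the stalk group held cells with the green reporter and without the red one (Wnt11RFP-;Hoxb7GFP+), with 3 libraries of messenger RNA each. The stalk group is thus defined by the absence of Wnt11 reporter signal and can hold every other part of the ureteric tree. The labels do not say how many animals were pooled or whether libraries came from separate litters, so p-values measure the spread between these libraries, which may be technical.

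DNA is repaired by several pathways. Homologous recombination copies the intact sister strand to mend a break and is used after replication, in S and G2 phase, whereas end joining ligates broken ends at any stage of the cycle. The Fanconi anaemia proteins unhook strands that are crosslinked to each other, mismatch repair removes copying errors, and the excision pathways cut out damaged bases or bulky lesions. Many genes of recombination and of the replication checkpoint are transcribed in cycling cells under E2F factors. The ureteric tips are a growing part of the tree that holds dividing cells.

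Values are RPKM, read numbers scaled to transcript length and to the reads of the library, as the authors deposited them, summed over the rows of each symbol. A total of 52 repair genes averaged 1 RPKM or more across the 6 libraries and were tested with limma on log2(RPKM + 1). Fold changes below are tip minus stalk on this scale, which understates the change of low genes. A gene was called at a Benjamini-Hochberg adjusted p under 0.05 over all 12532 genes tested. Levels are means ± SD with n = 3 libraries per group.

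Of the 52 repair genes tested, 31 were called higher in tip, 1 was called higher in stalk and 20 were not called. Those higher in tip made up 59.6% of the repair genes, beside 26.1% of all genes tested, and 22.5% of all genes tested were called higher in stalk. The median log2 fold change was 0.59 over the repair genes and 0.05 over all genes. In 15 repair genes the change toward tip was at least 1 log2 unit, a size reached by 8.24% of all genes. In 35 repair genes every tip library lay above every stalk library, which held for 31.3% of all genes. The calls were uneven across pathways: 12 of 14 recombination genes, 7 of 10 break-sensing and checkpoint genes and all 3 mismatch repair genes were higher in tip, while 3 of 9 Fanconi genes, 1 of 5 end-joining genes and 0 of 5 nucleotide excision genes were. Whether the pathways differ from each other was not tested. In bulk RNA, fewer cells of a kind and less RNA per cell cannot be told apart.

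**Figure D1:**
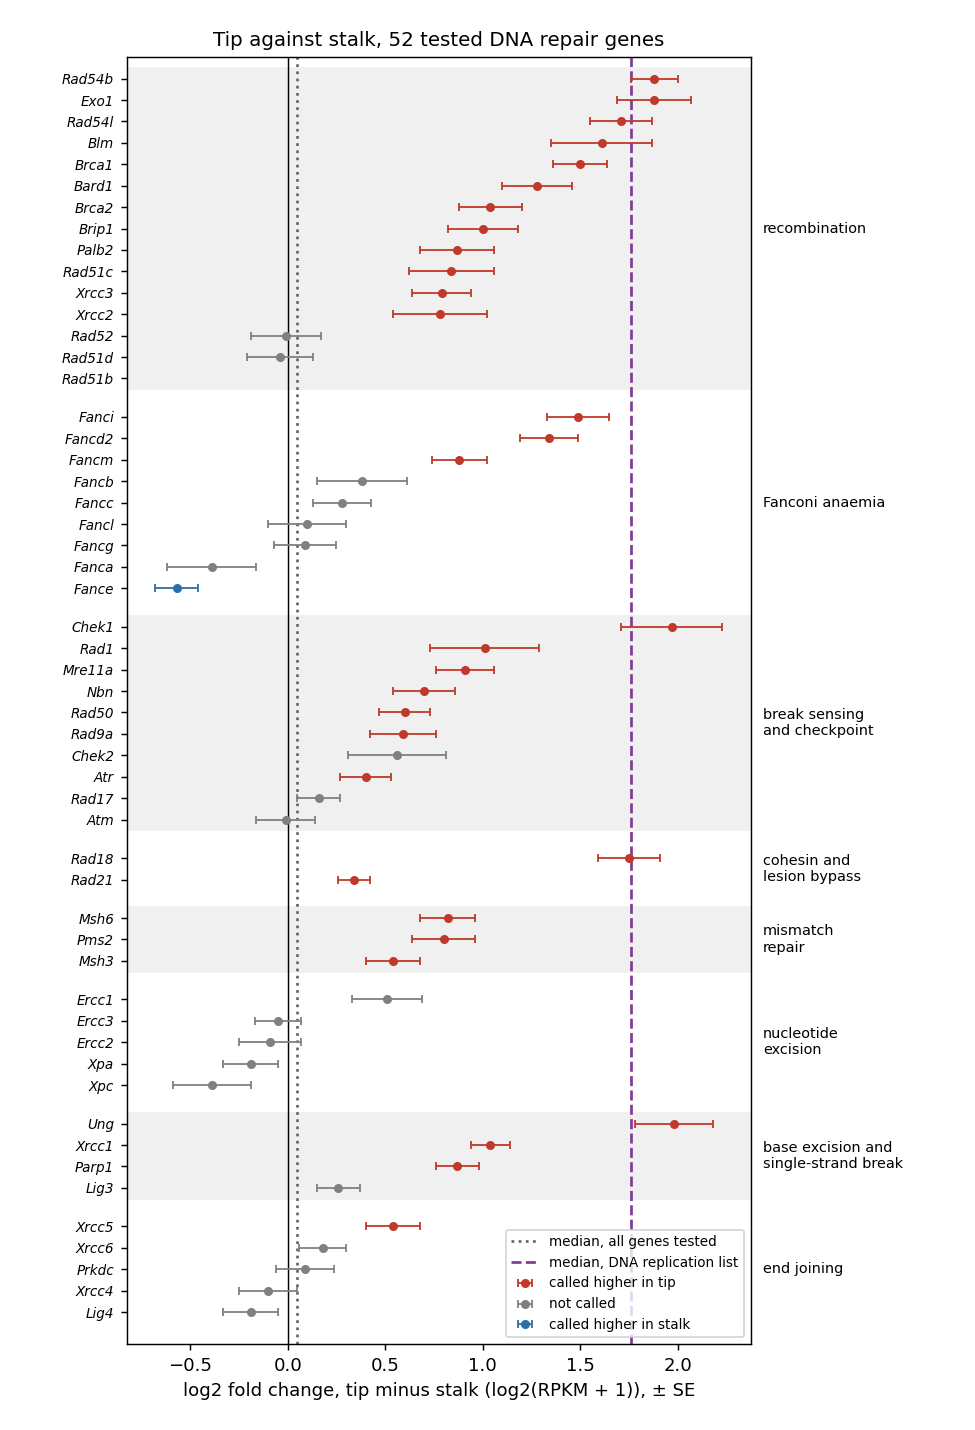
Log2 fold change (tip minus stalk, on log2(RPKM + 1)) with its standard error for the 52 repair genes tested, grouped by role, with red for genes called higher in tip, blue for the gene called higher in stalk and grey for genes not called; Rad51b was not tested. The dotted line is the median of all genes tested (0.05) and the dashed line the median of the DNA replication list (1.76), which 4 repair genes reached on this scale and 10 by the ratio of mean RPKM.

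The start regions of a few of these genes are shown first, since many of the genes were called in the same direction. RefSeq (build GRCm38.p6) gave a promoter for 41 of the 53 genes. The first listed promoter of each gene was searched, over the 250 bases before its start and on both strands, for the letters of 5 common motifs: E2F (TTTCCCGC, TTTGGCGC, TTTGCCGC or TTTCGCGC), the CCAAT box (CCAAT), the cell cycle homology region CHR (TTTGAA or TTCGAA), the TATA box (TATAAA) and the GC box (GGGCGG). Sequences are written in the direction of transcription with motif letters in capitals. By the naming rule Rad54l and Brca1, which were higher in tip, and Fance, the gene higher in stalk, are shown. Chek1, Blm and Fanci were also chosen, but at least 77 of the 250 bases of their windows lie in GENCODE exons and they are not printed; in Fance 11 bases do. Brca2 is shown because its window holds E2F letters. The windows are chr4:116123691-116123940 (minus strand) for Rad54l, chr11:101551956-101552205 (minus strand) for Brca1, chr17:28313280-28313529 (plus strand) for Fance and chr5:150522371-150522620 (plus strand) for Brca2.
Rad54l: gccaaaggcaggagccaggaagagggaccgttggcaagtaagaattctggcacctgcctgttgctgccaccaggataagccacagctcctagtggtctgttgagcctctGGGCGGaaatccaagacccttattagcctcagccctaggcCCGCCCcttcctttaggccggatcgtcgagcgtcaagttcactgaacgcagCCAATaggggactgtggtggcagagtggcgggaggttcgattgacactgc
Brca1: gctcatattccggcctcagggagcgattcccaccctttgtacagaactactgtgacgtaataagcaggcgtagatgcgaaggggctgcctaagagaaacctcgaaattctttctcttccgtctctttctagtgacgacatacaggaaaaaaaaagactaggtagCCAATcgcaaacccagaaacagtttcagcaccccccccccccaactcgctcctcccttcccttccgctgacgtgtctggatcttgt
Fance: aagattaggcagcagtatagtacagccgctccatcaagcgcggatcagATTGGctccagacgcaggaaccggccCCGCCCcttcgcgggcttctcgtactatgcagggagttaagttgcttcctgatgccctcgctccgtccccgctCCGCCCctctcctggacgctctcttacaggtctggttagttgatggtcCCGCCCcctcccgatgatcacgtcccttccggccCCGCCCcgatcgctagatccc
Brca2: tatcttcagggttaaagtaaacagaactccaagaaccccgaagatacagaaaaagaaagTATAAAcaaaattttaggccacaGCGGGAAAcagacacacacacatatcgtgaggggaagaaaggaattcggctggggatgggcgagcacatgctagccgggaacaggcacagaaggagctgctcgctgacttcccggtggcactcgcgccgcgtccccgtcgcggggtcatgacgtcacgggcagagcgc

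E2F letters stood in the windows of 6 of 41 repair genes (14.6%) and in 1.91% of all 27025 promoters. They were found in 3 of 23 windows of genes higher in tip (Brca2, Bard1 and Msh3). Among genes not called they were found in 3 of 16 windows (Fancg, Chek2 and Xrcc6). In Bard1, 174 of the 250 bases of the window lie in GENCODE exons. In Brca2 the match begins at position -168 from the start. CCAAT boxes stood in 20 of 41 windows (48.8%) and in 34.5% of all promoters, and GC boxes in 25 of 41 (61.0%) and in 32.9%. CHR letters and TATA boxes were each found in 2 of 41 windows (4.88%), beside 17.4% and 13% of all promoters. In Rad54l a CCAAT box lies at position -50 and in Brca1 at -86, while Fance holds 4 GC boxes and a CCAAT box on the opposite strand. The window of Chek1 held none of these letters, but all 250 of its bases lie in GENCODE exons, inside the annotated gene. Matches are a description of letters and do not show binding.

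Of the 14 recombination genes tested 12 were higher in tip, and their median log2 fold change was 1.02. The DNA translocase gene Rad54b (chromosome 4, 11558922 to 11615805, plus strand, mm10) stood at 14.5, 12.6 and 13.1 RPKM in the tip libraries and at 2.76, 2.88 and 3.04 RPKM in the stalk libraries. The groups were far apart and the spread within each was small. Its log2 fold change was 1.88 (SE 0.12, limma adjusted p = 1.36e-05), a 4.62-fold ratio of means. An exon of Rad54b overlaps one of Fsbp on the same strand, which averaged 1.07 RPKM in tip, against 0.477 RPKM in stalk. Exo1, an exonuclease that resects DNA ends, stood at 7.61, 5.39 and 6.10 RPKM in tip, against 0.600, 1.07 and 1.36 RPKM in stalk. This 6.30-fold ratio was the largest of any repair gene tested. Rad54l (1.71), the close relative of Rad54b, and the RecQ helicase gene Blm (1.61) followed. Blm stood at 9.71, 7.63 and 7.69 RPKM in tip, against 3.05, 0.959 and 2.55 RPKM in stalk, with stalk replicate 2 far below the others.

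Brca1, Bard1, Brip1, Palb2 and Brca2 were called higher in tip. Brca1 (chromosome 11, 101488764 to 101551955, minus strand) stood at 8.78, 8.09 and 8.52 RPKM in tip, against 2.53, 2.61 and 1.94 RPKM in stalk. The groups did not overlap, and the log2 fold change was 1.5 (SE 0.14, limma adjusted p = 6.53e-05). Bard1, its partner in a ubiquitin ligase, had a log2 fold change of 1.28, and the helicase gene Brip1 had 1.0. Palb2, which bridges Brca1 to Brca2, changed by 0.87. Brca2 (chromosome 5, 150522630 to 150570329, plus strand), which acts in strand exchange, stood at 3.19, 2.49 and 2.95 RPKM in tip, against 0.707, 0.954 and 1.0 RPKM in stalk (log2 fold change 1.04, SE 0.16, limma adjusted p = 0.000969). These low genes depend on the pseudocount: with 0.1 RPKM the log2 fold change was 2.04 for Bard1, 1.65 for Brip1, 1.60 for Brca2 and 1.33 for Palb2.

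The related genes Rad51b, Rad51c, Rad51d, Xrcc2 and Xrcc3, whose products act together in recombination, were divided. Xrcc3 (0.79), Rad51c (0.84) and Xrcc2 (0.78) were called higher in tip. Xrcc2 was barely separated, since its lowest tip value (2.58 RPKM, replicate 2) lay just above its highest stalk value (2.46 RPKM, replicate 2). Its adjusted p of 0.0269 lay between 0.0687 and 0.1 without tip replicate 1, tip replicate 3, stalk replicate 1 or stalk replicate 3, and Rad51c was at 0.0586 without tip replicate 3. Rad51d averaged 5.18 ± 0.776 RPKM in tip, against 5.42 ± 1.27 RPKM in stalk and was not called (-0.04, limma adjusted p = 0.852). Rad51b, at 1.27, 0.715 and 0.738 RPKM in tip, against 0.174, 0.0944 and 0.344 RPKM in stalk, was below the filter. The annealing gene Rad52 averaged 4.61 ± 1.15 RPKM in tip, against 4.58 ± 0.611 RPKM in stalk, and its change was -0.01 (SE 0.18, limma adjusted p = 0.983).

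**Figure D2:**
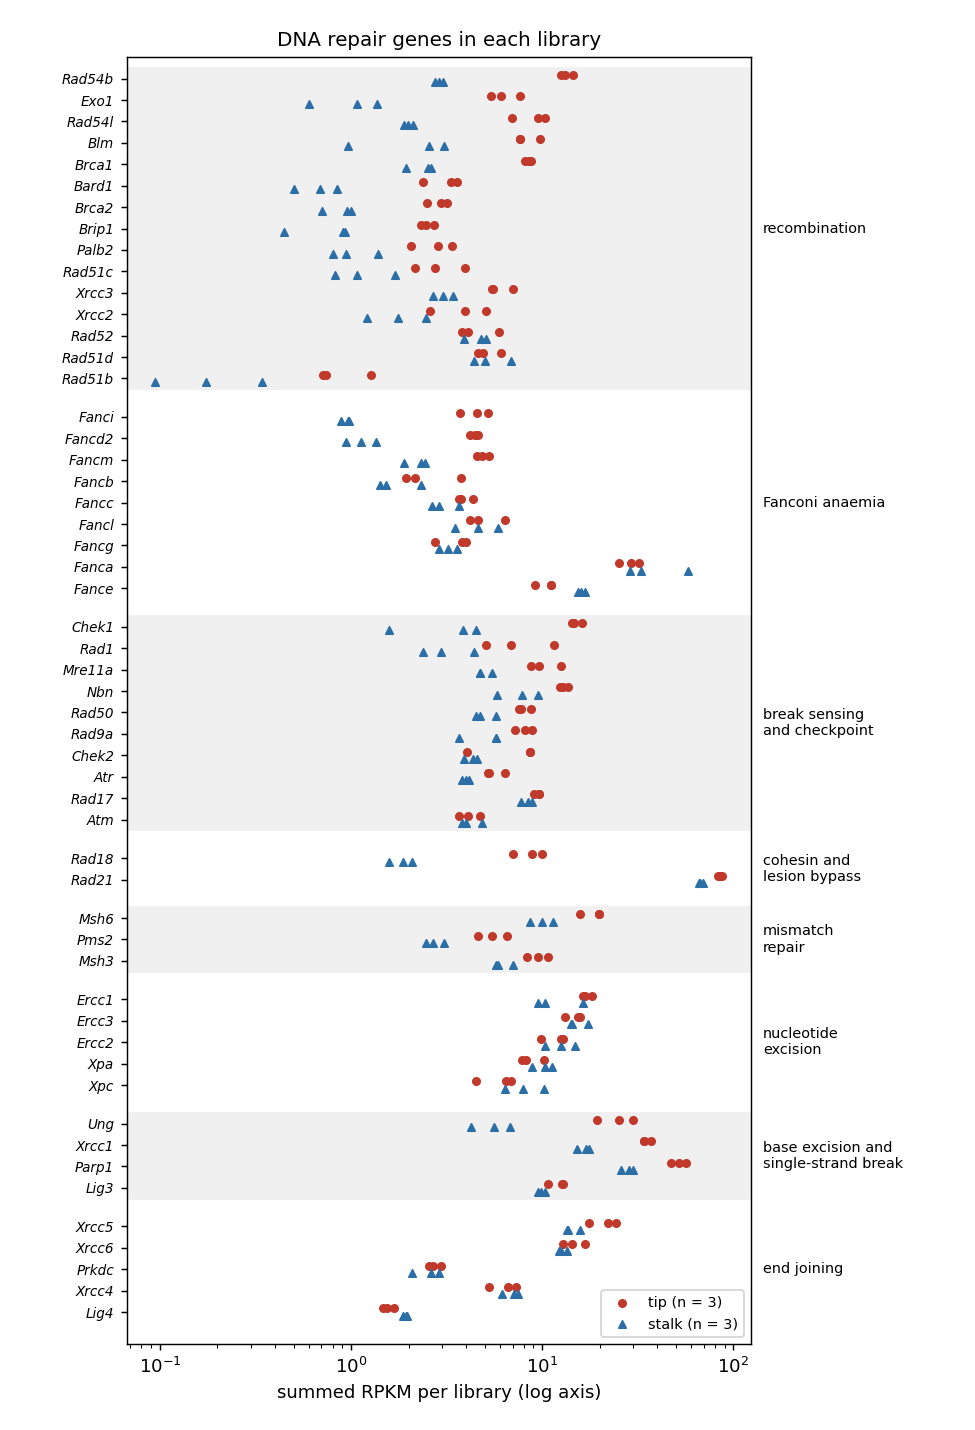
Summed RPKM on a log axis for the 53 repair genes in each library, grouped by role, with red circles for the 3 tip libraries and blue triangles for the 3 stalk libraries. Red and blue points separate in most recombination rows and mingle in the nucleotide excision rows, and Fance is the called gene whose blue points lie to the right.

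In the Fanconi anaemia pathway a core complex of many subunits attaches ubiquitin to the paired clamp proteins Fanci and Fancd2. The genes of the clamp were higher in tip, and most genes of the core complex were not called. Fanci (chromosome 7, 79391929 to 79450264, plus strand) stood at 5.20, 3.71 and 4.54 RPKM in tip, against 0.962, 0.890 and 0.971 RPKM in stalk. The stalk libraries were nearly equal and lay well below every tip library (log2 fold change 1.49, SE 0.16, limma adjusted p = 0.000134). Fancd2 changed by 1.34, at 4.42 ± 0.230 RPKM in tip, against 1.14 ± 0.202 RPKM in stalk. Fancm, the translocase that anchors the core complex on DNA, changed by 0.88.

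Of the core complex genes Fancb (0.38), Fancc (0.28), Fancg (0.09) and Fancl (0.10), which encodes the ubiquitin ligase subunit, none was called (limma adjusted p between 0.158 and 0.71). Fanca, the most highly expressed Fanconi gene here, stood at 31.9, 29.1 and 25.3 RPKM in tip, against 32.8, 28.9 and 57.8 RPKM in stalk. Stalk replicate 3 was far above the other 5 libraries, and the gene was not called (-0.39, limma adjusted p = 0.198). Fance (chromosome 17, 28313519 to 28326572, plus strand), whose product links the core complex to Fancd2, was the repair gene called higher in stalk. It stood at 11.1, 11.1 and 9.13 RPKM in tip, against 15.3, 15.9 and 16.7 RPKM in stalk. The groups did not overlap, and the change was -0.57 (SE 0.11, limma adjusted p = 0.00378). Its values were spread over 14 rows of the table, of which the highest held 26.7% of the sum.

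Among the genes that sense breaks and halt the cycle, Chek1, the effector kinase of the replication checkpoint, changed most. It stood at 16.2, 14.7 and 14.4 RPKM in tip, against 4.52, 1.58 and 3.87 RPKM in stalk. All tip libraries were above all stalk libraries, and stalk replicate 2 was lowest, as it was for Blm. The log2 fold change of Chek1 was 1.97 (SE 0.26, limma adjusted p = 0.000459), and 1.19 with its highest row in place of the sum. Atr, the kinase that activates Chek1, had a change of 0.40 that was barely called (limma adjusted p = 0.0336). Its adjusted p lay between 0.0527 and 0.134 with any 1 of the 6 libraries left out, so this call needed all of them. Atm, the kinase activated by breaks, averaged 4.17 ± 0.541 RPKM in tip, against 4.21 ± 0.549 RPKM in stalk and was not called (-0.01, SE 0.15, limma adjusted p = 0.959). Chek2, the effector of Atm, stood at 8.58, 4.06 and 8.64 RPKM in tip, against 3.88, 4.35 and 4.56 RPKM in stalk. Tip replicate 2 lay among the stalk values. Chek2 was not called (0.56, limma adjusted p = 0.0921), but without tip replicate 2 its log2 fold change was 0.87 and its adjusted p was 0.00222.

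The 3 genes of the complex that binds broken ends, Mre11a (0.91), Nbn (0.70) and Rad50 (0.60), were called higher in tip. Nbn stood at 13.6, 12.4 and 12.9 RPKM in tip, against 7.80, 5.82 and 9.51 RPKM in stalk. Of the ring-shaped clamp that marks damaged DNA, Rad1 (1.01) and Rad9a (0.59) were called, and the clamp loader gene Rad17 was not (0.16, limma adjusted p = 0.273). Rad1 varied within tip, at 6.87, 5.07 and 11.5 RPKM, with 2.39, 2.96 and 4.42 RPKM in stalk. With no filter on low values Rad1 (limma adjusted p = 0.0689), Rad9a (0.0594) and Atr (0.0521) were not called, which left 4 of the 10 genes. Rad9a also lost its call without tip replicate 1 (limma adjusted p = 0.0786) or tip replicate 3 (0.0626). Its exons overlap those of Ppp1ca, which stood at 222 RPKM in tip, against 189 RPKM in stalk, on the opposite strand, and reads of the pair cannot be told apart unless strand was used.

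Rad18, a ubiquitin ligase that switches stalled forks to lesion bypass, stood at 10, 7.02 and 8.87 RPKM in tip, against 1.58, 1.87 and 2.09 RPKM in stalk (log2 fold change 1.75, SE 0.16, limma adjusted p = 6.88e-05). Rad21, the cohesin subunit that closes the ring around sister chromatids, was the most highly expressed repair gene, at 87.6, 83.4 and 85.1 RPKM in tip, against 65.9, 66.6 and 69.6 RPKM in stalk. Its libraries were tight and did not overlap between groups, so a small change of 0.34 (SE 0.08) was called (limma adjusted p = 0.00928). Mismatch repair genes changed moderately. Msh6, which recognises mispaired bases, stood at 19.9, 15.7 and 19.8 RPKM in tip, against 8.66, 9.98 and 11.4 RPKM in stalk (0.82, SE 0.14, limma adjusted p = 0.00176). Msh3, which recognises small loops, changed by 0.54 and the endonuclease gene Pms2 by 0.80. Msh3 was at an adjusted p of 0.0518 without tip replicate 1.

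Genes that repair damaged bases and nicks were mostly higher in tip. Ung, which removes uracil from DNA, had the largest log2 fold change of the repair genes with a pseudocount of 1 RPKM, and the fifth with 0.1 RPKM (chromosome 5, 114130386 to 114139323, plus strand). It stood at 30.0, 19.3 and 25.3 RPKM in tip, against 4.24, 5.60 and 6.78 RPKM in stalk (1.98, SE 0.20, limma adjusted p = 9.54e-05). The scaffold gene Xrcc1 (1.04) averaged 35.2 ± 1.80 RPKM in tip, against 16.6 ± 1.25 RPKM in stalk. Parp1, which senses nicks, stood at 56.8, 47.0 and 52.2 RPKM in tip, against 25.7, 28.6 and 29.8 RPKM in stalk (0.87, SE 0.11, limma adjusted p = 0.000305). The ligase gene Lig3, partner of Xrcc1, changed by 0.26 and was not called (limma adjusted p = 0.0948), although its tip libraries all lay above its stalk libraries.

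The nucleotide excision genes, which remove bulky lesions, had a median log2 fold change of -0.09. None of the 5 was called by limma, and 1 had an unadjusted p under 0.05. That was Ercc1, a subunit of the nuclease that cuts beside a lesion, at 16.3, 18.3 and 16.7 RPKM in tip, against 16.3, 10.3 and 9.56 RPKM in stalk (0.51, SE 0.18, limma adjusted p = 0.0505). Stalk replicate 1 stood at the level of the tip libraries, and without it the log2 fold change was 0.73 with an adjusted p of 0.00173. With a minimum mean of 5 RPKM Ercc1 was also called (limma adjusted p = 0.0496). Ercc3, a helicase subunit of the transcription factor TFIIH, stood at 15.8, 13.2 and 15.3 RPKM in tip, against 14.3, 14.2 and 17.3 RPKM in stalk, with overlapping groups (-0.05, SE 0.12, limma adjusted p = 0.778). Ercc2, the other TFIIH helicase gene, had -0.09 and the scaffold gene Xpa -0.19. Xpc, the damage sensor, had -0.39 (SE 0.20, limma adjusted p = 0.131), at 5.96 ± 1.25 RPKM in tip, against 8.17 ± 1.92 RPKM in stalk.

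End-joining genes had a median of 0.09. Xrcc5, a subunit of the Ku ring that holds broken ends, stood at 24.4, 17.6 and 22.1 RPKM in tip, against 13.7, 15.8 and 13.5 RPKM in stalk (0.54, SE 0.14, limma adjusted p = 0.0126). The call was lost without tip replicate 1 (limma adjusted p = 0.0532), with 0 end-joining genes then called. Its Ku partner Xrcc6 changed by 0.18 and was not called (limma adjusted p = 0.254). Prkdc, the kinase recruited by Ku, averaged 2.73 ± 0.198 RPKM in tip, against 2.53 ± 0.416 RPKM in stalk (0.09, limma adjusted p = 0.671). Neither the ligase gene Lig4 (-0.19) nor its partner Xrcc4 (-0.10) was called. In Lig4 the stalk libraries, at 1.96, 1.88 and 1.93 RPKM, all lay above the tip libraries, at 1.54, 1.47 and 1.67 RPKM.

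Other genes of the same pathways, from lists of general knowledge, were counted beside these. Of 25 further recombination and Fanconi genes tested, 15 were higher in tip, among them the nuclease Dna2 (1.80), the deubiquitinase Usp1 (1.76), the Blm partner Rmi2 (1.76) and the single-strand binding subunit Rpa2 (1.73). Usp1, which removes ubiquitin from the Fanconi clamp, stood at 40 ± 3.12 RPKM in tip, against 11.1 ± 0.113 RPKM in stalk. Of 16 further checkpoint genes, 9 were higher in tip, with the replication checkpoint mediators Clspn (1.77), Tipin (1.53), Topbp1 (1.49) and Timeless (1.44) changed most. Of 4 further mismatch repair genes 3 were, including Pms1 (0.65).

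Excision repair genes outside the main list were mixed, with 12 of 27 called toward tip and 2 toward stalk. The flap nuclease Fen1 (1.73), the glycosylase Neil3 (1.66), the replicative ligase Lig1 (1.54) and the glycosylase Mutyh (0.94) changed most. Smug1 (-0.50), another uracil glycosylase, was called in the direction opposite to Ung, as was Uvssa (-0.56). Of 4 further end-joining genes, Dclre1c (-0.79) and Polm (-0.45) were higher in stalk and Poll (0.47) was higher in tip. Of 16 genes of lesion bypass and direct reversal, 5 were higher in tip, led by Zranb3 (1.12), Rev1 (0.77), Ube2n (0.64) and Polh (0.56). In this list 1 gene, the bypass polymerase gene Polk (-0.42), was higher in stalk, and the median was 0.11. The shares called toward tip were 31.2% here and 25.0% for the further end-joining genes. Both lay near the 26.1% of all genes tested.

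**Figure D3:**
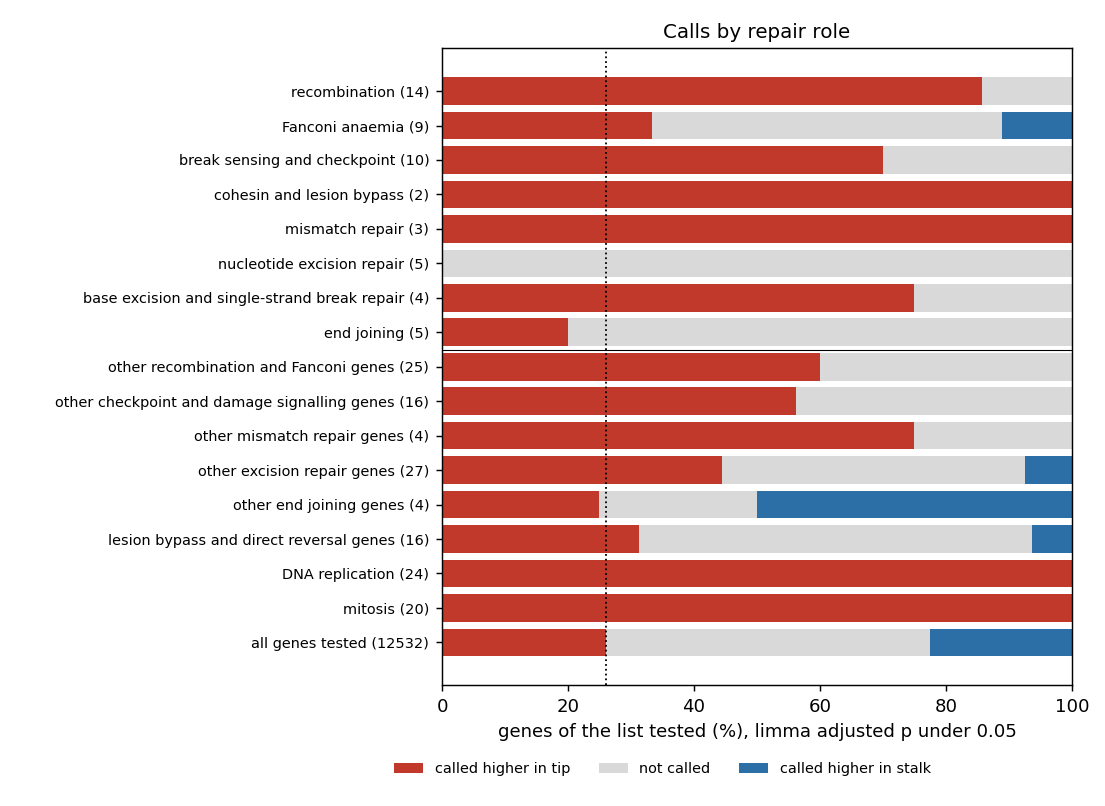
Share of genes tested (%) that limma called higher in tip (red), did not call (grey) or called higher in stalk (blue), for the 8 groups of the 53 repair genes (above the line), further repair lists, DNA replication, mitosis and all 12532 genes, with the number tested in brackets. The dotted line marks the 26.1% of all genes called higher in tip; the recombination bar reaches 85.7% and the nucleotide excision bar has no red part.

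The repair genes were set beside the genes of DNA replication and mitosis, of which every gene tested (24 of 24 and 20 of 20) was higher in tip. The median log2 fold change was 1.76 for replication, 1.65 for mitosis and 0.59 for the repair genes. The replication genes ranged from 0.92 to 2.08, and 37 of the 52 repair genes lay below that range. Ung, Chek1, Exo1 and Rad54b were the 4 repair genes at or above the replication median on this scale, which shrinks the change of low genes. By the ratio of mean RPKM, tip over stalk, the replication median was 3.76 and its lowest gene 1.99, with 10 repair genes at or above the median ratio and 31 below the lowest. Mcm5, of the replicative helicase, averaged 58.2 ± 6.0 RPKM in tip, against 13.6 ± 1.76 RPKM in stalk, and the mitotic kinase gene Cdk1 104 ± 8.25 RPKM in tip, against 25.0 ± 2.52 RPKM in stalk. Summed over the list, replication genes came to 775 to 938 RPKM in the tip libraries and 241 to 292 RPKM in the stalk libraries. The part that the share of cycling cells has in the values of the repair genes was not tested.

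The libraries of a group were not alike. Tip replicate 2 was the lowest tip library for 40 of the 52 repair genes, beside 46.1% of all genes tested, and tip replicate 1 was the highest for 36, beside 34.9%. Relative to each gene's mean over the 6 libraries, the 38 recombination, Fanconi, checkpoint, bypass and mismatch genes had medians of 0.56, 0.21 and 0.38 log2 units in tip replicates 1, 2 and 3 and of -0.39, -0.39 and -0.31 in stalk replicates 1, 2 and 3. The 14 excision and end-joining genes had 0.09, -0.01 and 0.16 in tip and -0.08, -0.13 and -0.05 in stalk. The DNA replication list had 0.99, 0.70 and 0.90 in tip and -0.89, -0.95 and -0.71 in stalk, so tip replicate 2 was the lowest tip library there too. Without tip replicate 2 and stalk replicate 1, which earlier results showed apart, the calls numbered 32 toward tip and 1 toward stalk.

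**Figure D4:**
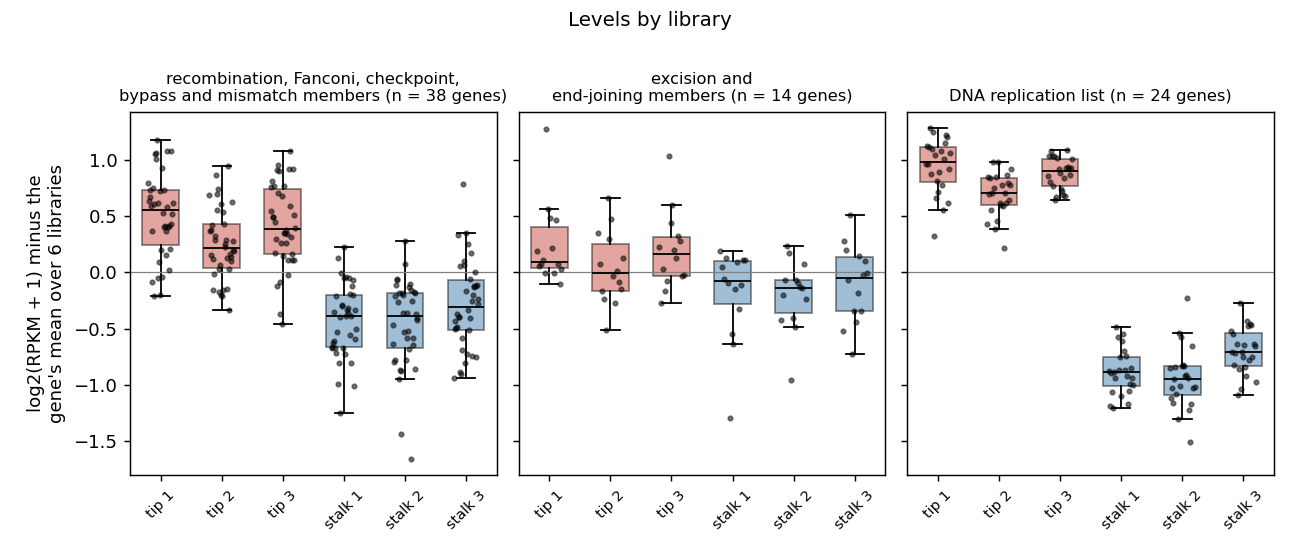
Level of each gene in each library, as log2(RPKM + 1) minus the gene's mean over the 6 libraries, for 38 recombination, Fanconi, checkpoint, bypass and mismatch genes, 14 excision and end-joining genes and 24 DNA replication genes; points are genes, boxes span the quartiles with the median as a line, and whiskers reach to 1.5 times the box. Tip replicate 2 has the lowest tip median in each panel (0.21, -0.01 and 0.70).

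Markers of the sorted cells and of other cell types were read in the same libraries. All 6 tip markers were called higher in tip (Wnt11 at 6.2) and all 6 stalk markers higher in stalk (Aqp2 at -6.82), and all 12 markers of ureteric epithelium passed the filter. All 8 endothelial markers were higher in stalk, with a summed level of 6.37 to 9.35 RPKM in tip libraries and 44.4 to 76.4 RPKM in stalk libraries. Of 8 stromal markers 3 passed the filter and none of these was called by limma, with sums of 4.16 to 8.10 RPKM in tip, against 4.36 to 7.62 RPKM in stalk. Immune markers summed to 12.7 to 15.3 RPKM in tip, against 12.2 to 19.5 RPKM in stalk, with Cd68 (0.69) called higher in tip and Laptm5 (-2.39) higher in stalk. Both nephron progenitor markers tested, Cited1 (0.82) and Crym (1.04), were higher in tip, and that list summed to 3.96 to 6.47 RPKM in tip, against 1.32 to 2.19 RPKM in stalk. Erythroid markers ranged from 12.4 to 72.4 RPKM in tip and from 8.88 to 83.9 RPKM in stalk. No marker of these lists was at 0 in all 6 libraries. The part of these cells in the repair genes was not tested.

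The summed values have limits of their own. The repair genes had up to 15 rows each and 13 had 1 row. Pms2 has 14 rows, and its exons overlap those of Rsph10b and Gm42421 on the same strand in GENCODE M21. With the highest row of each symbol in place of the sum, 30 repair genes were higher in tip. Pms2 was no longer called (limma adjusted p = 0.231). The log2 fold change was then 1.23 for Rad54b, 1.19 for Chek1, 1.5 for Xrcc3 and -0.94 for Fance, each more than 1.5 times from its summed value and still called. Exons of 26 repair genes overlap exons of another gene in GENCODE M21, 15 of them among those called higher in tip. The use of strand was not given in the sources used here, so these values are less certain.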

How the data were processed

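Messenger RNA of 3 tip and 3 stalk libraries was measured in 1 deposited table. Per the labels' protocols, a Qiagen RNeasy micro kit gave the RNA and a Kapa stranded kit the libraries. Values are RPKM computed by the authors; TopHat2, Partek, bcl2fastq 2.17 and build mm10 appear in the submitters' processing notes. Not given in the sources used here are the gene annotation, the quantification settings and whether strand was used. Of 93615 rows, 24545 held a question mark in all 6 columns and were dropped. RPKM was summed over the rows of each symbol. Depth was unknown, so no counting interval or floor is given.

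Genes averaging 1 RPKM or more were tested on log2(RPKM + 1) by limma 3.58.1 (R 4.3.3), fitting group with a mean-variance trend, no block, two-sided tests and Benjamini-Hochberg adjustment over all 12532 genes. The model was tested on simulated data. Coordinates are from GENCODE M21 (mm10) and promoters from RefSeq (GRCm38.p6). In 14 alternatives the pseudocount, filters, scaling, rows, trend, block and libraries were changed.

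The repair genes, the further lists and the alternatives were chosen with earlier results of these data known. Values per library are given for the tested gene of each role with the largest change, the one with the highest mean and the gene called higher in stalk, and of each further list up to 4 called genes with the largest change are named. Aen and Mdm2 were named as well, as the p53 targets called higher in tip. Other values per library were chosen after they were seen. Some genes that the rule takes are not reported here.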

Additional observations from a re-analysis of the deposited data

How the results depend on the processing

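No repair gene called in the main analysis changed direction in any of the 14 alternatives. Of the 31 called higher in tip, 23 were called in every alternative that tested them and 8 lost the call in at least 1. With a minimum mean of 5 RPKM fewer repair genes were tested, and 19 of the 31 left were called higher in tip. They include Ercc1, not called in the main analysis (limma adjusted p = 0.0496 here). Calls toward tip went from 12 to 4 for recombination genes and from 3 to 0 for Fanconi genes. Most genes of both groups fell below this filter, so the uneven calls across pathways rest in part on genes of low level. Fance was still called higher in stalk. The median log2 fold change of the repair genes was 0.68 with a pseudocount of 0.1 RPKM, 0.75 without tip replicate 2 and stalk replicate 1 together, and 0.54 to 0.70 with 1 library left out. The cause of these shifts was not tested. Scaling each library by its median ratio moved the median of all genes by -0.05 and left 31 repair genes higher in tip.

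Among genes not called, the sign turned, with no call, for Rad51d (0.10), Fancl (-0.23) and Ercc2 (0.035) with the highest row of each symbol, and for Atm (0.032) and Xrcc4 (0.037) without tip replicate 2 and stalk replicate 1 together. With 1 library left out, log2 fold changes ranged from -0.16 to 0.11 for Rad51d, -0.17 to 0.10 for Rad52, -0.055 to 0.25 for Fancl, -0.089 to 0.074 for Atm, -0.21 to 0.030 for Ercc2, -0.094 to 0.042 for Ercc3, -0.19 to 0.014 for Xrcc4 and -0.0098 to 0.16 for Prkdc.

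The labels do not say whether equal replicate numbers mark pairs. The correlation over genes of deviations from the group means was -0.30, -0.34 and 0.09 for replicates 1, 2 and 3. Tip replicate 2 correlated best with stalk replicate 1 (0.56). Deviations from a mean of 3 libraries depend on each other, so these values cannot show whether libraries were paired. With the replicate block, 29 repair genes were called toward tip and 1 toward stalk. Rad51b, below the filter, was called higher in tip with no filter on low values (0.66, limma adjusted p = 0.0206) and is among the 28 repair genes called toward tip there. Depth was not known, so how far low values limit these calls cannot be given.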

Other observations

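Targets of p53, which are induced when DNA damage is signalled, were counted as a list. Of 14 tested, 5 were higher in stalk and 2 higher in tip, where 22.5% and 26.1% of all genes were, with a median log2 fold change of -0.30. The 2 higher in tip were Aen (0.82, limma adjusted p = 0.000722) and Mdm2 (0.35, limma adjusted p = 0.0225). The antiproliferative gene Btg2 averaged 275 ± 74.5 RPKM in tip, against 701 ± 50.6 RPKM in stalk (-1.38, SE 0.19, limma adjusted p = 0.000581). Ccng1, which encodes cyclin G1, averaged 6.79 ± 0.248 RPKM in tip, against 14.8 ± 1.04 RPKM in stalk (-1.02). Pmaip1 (-1.63), which promotes cell death, and the cyclin-dependent kinase inhibitor gene Cdkn1a (-1.28, limma adjusted p = 0.0404) were also higher in stalk, with wide spread: Cdkn1a averaged 14.2 ± 9.52 RPKM in tip, against 33.2 ± 14.1 RPKM in stalk. Tip replicate 2 and stalk replicate 1 were the highest libraries of their groups for several targets. Gadd45a stood at 39.3, 115 and 43.6 RPKM in tip replicates 1, 2 and 3, against 123, 52.7 and 60.0 RPKM in stalk replicates 1, 2 and 3, and was not called (limma adjusted p = 0.57). Sesn2, Bbc3, Plk2, Pmaip1 and Cdkn1a had the same 2 libraries highest. Their part in the calls was not tested.

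Cohesin genes other than Rad21 were mostly higher in tip, 6 of 7 tested. The ring subunit Smc1a averaged 39.3 ± 1.94 RPKM in tip, against 20.6 ± 1.71 RPKM in stalk (0.90), a larger log2 fold change than that of its ring partner Rad21 (0.34). Smc3 (0.75), Stag1 (0.64) and Pds5b (0.55) were also called. The difference between Smc1a and Rad21 was not tested.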
